A study of Mus musculus with 6 samples.

Results

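The 10 mouse genes described here carry a maternal germline differentially methylated region (DMR) and were followed in androgenetic haploid embryonic stem cell lines and in round spermatids. The genes were Nnat, Mcts2, Peg10, Nap1l5, Inpp5f, Slc38a4, Zrsr1, Grb10, Impact and Plagl1, 10 of 49550 genes in the gene table. They were listed for their good coverage, and every cytosine with at least 10 reads inside the gene or within 5 kb of it was used. This gave 685 of the 1456443 positions that reached 10 reads in any library. Each region was divided into a DMR window, within 1 kb of the start of the imprinted transcript, and its surroundings, which are the gene body and the flanks.

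The assay was RRBS (reduced representation bisulfite sequencing), in which the enzyme MspI cuts at CCGG and bisulfite then converts unmethylated cytosines, so that CpG-rich sequence is read most. The double-knockout (DKO) group held 3 androgenetic haploid lines, named AGH-4, OG3-2 and AGH-2, at passages 32, 31 and 29, and labelled as lacking both the IG-DMR and the H19 DMR. The wild-type (WT) group held 2 such lines without these deletions, AGH-OG3 and AGH-2, at passages 31 and 18. The last library came from round spermatids of the testis, which are the haploid cells left by male meiosis, and has no replicate. All animals or lines were of C57BL/6 strain, and the lines were kept on feeders in ES medium with the kinase inhibitor pair 2i. An androgenetic haploid line has a single chromosome set, taken from the father. The labels do not state that each line came from an embryo of its own, so a p-value here speaks of the spread among these lines only.

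At a maternal germline DMR the oocyte sets DNA methylation and the sperm does not. After fertilisation the mark is kept on the maternal copy while most of the genome is reprogrammed, and the unmethylated paternal copy is the one that is usually expressed. ZFP57, a zinc finger protein of mouse embryonic stem cells, binds the methylated form of the motif TGCCGC at many such regions and helps to keep the mark. Cells from both parents thus hold a methylated and an unmethylated copy, whereas a set of paternal chromosomes brings the unmethylated copy alone. The comparison asked whether the lines keep that paternal state at the DMR, and whether the surroundings carry methylation in spermatids.

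The sequence that was read at these regions is shown for 4 promoters whose window holds CpGs measured in all 6 libraries. Each runs from 250 bases before to 50 bases after the transcript start, 5′ to 3′ on the gene's strand, from RefSeq (GRCm38.p6). Capitals mark the CpGs with at least 10 reads in every library. Nnat lies at chr2:157559828-157560127 on the plus strand, Mcts2 at chr2:152686898-152687197 on the plus strand, Zrsr1 at chr11:22971755-22972054 on the plus strand and Plagl1 at chr10:13090582-13090881 on the plus strand.
Nnat: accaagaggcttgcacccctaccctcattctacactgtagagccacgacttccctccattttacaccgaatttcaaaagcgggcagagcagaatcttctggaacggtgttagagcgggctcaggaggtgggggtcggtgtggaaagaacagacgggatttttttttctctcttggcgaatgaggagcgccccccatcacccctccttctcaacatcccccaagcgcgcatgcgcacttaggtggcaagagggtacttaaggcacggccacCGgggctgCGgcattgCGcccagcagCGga
Mcts2: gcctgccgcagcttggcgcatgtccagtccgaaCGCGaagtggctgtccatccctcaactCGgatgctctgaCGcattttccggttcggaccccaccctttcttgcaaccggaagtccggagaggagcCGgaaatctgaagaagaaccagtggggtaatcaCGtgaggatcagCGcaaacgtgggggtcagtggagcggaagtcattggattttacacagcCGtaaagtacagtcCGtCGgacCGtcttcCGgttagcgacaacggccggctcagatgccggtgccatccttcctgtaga
Zrsr1: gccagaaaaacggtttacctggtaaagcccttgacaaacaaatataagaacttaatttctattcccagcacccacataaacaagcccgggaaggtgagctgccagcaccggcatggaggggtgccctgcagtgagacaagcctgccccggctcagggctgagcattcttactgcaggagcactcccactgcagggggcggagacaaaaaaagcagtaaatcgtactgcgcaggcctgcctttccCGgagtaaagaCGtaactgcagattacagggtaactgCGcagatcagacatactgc
Plagl1: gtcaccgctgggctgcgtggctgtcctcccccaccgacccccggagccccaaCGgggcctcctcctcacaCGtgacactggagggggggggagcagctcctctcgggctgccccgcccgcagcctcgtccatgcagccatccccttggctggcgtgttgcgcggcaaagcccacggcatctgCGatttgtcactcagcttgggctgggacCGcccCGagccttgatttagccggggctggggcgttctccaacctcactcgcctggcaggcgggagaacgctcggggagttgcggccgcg

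The capitals give 4 CpGs in Nnat, 12 in Mcts2, 3 in Zrsr1 and 5 in Plagl1. At the 4 CpGs of Nnat, which are the closest to its start among those read in all 6 libraries, all 5 lines were at 0% and round spermatids reached 0.538% at position 157560098. The 12 CpGs of Mcts2 reached at most 0.518% in any line and 0.103% in round spermatids. The 5 CpGs of Plagl1 were at 0% except for 0.8% in DKO replicate 3 at position 13090793. At Zrsr1 the highest value was 5.88% in WT replicate 2 at position 22971999, from 17 reads.

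Promoter sequences of 6 of the genes fell inside their DMR window, namely those of Nnat, Mcts2, Nap1l5, Slc38a4, Zrsr1 and Plagl1. TGCCGC, searched on both strands, was present in 4 of the 6 (66.7%), against 11.6% of 32851 RefSeq promoters of the same length. The MspI site CCGG was present in 5 of the 6 (83.3%), against 52.8% of all promoters, and no TGCCGC match overlapped another match. The 6 promoters held a median of 17 CpGs, from 5 to 26, against a median of 7 in all promoters. A match is a description of these letters and shows neither binding nor its absence. The promoters of Inpp5f and Grb10 in the table lie outside their DMR windows, and no promoter sequence was used here for Peg10 or Impact.

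Across the whole series the 5 lines had between 197728785 and 255726544 read counts over cytosines and the round spermatid library had 293920118. There were 233019 positions with at least 10 reads in all 6 libraries, with a median of 410 reads per position and library. Between 0.126% and 0.254% of shared positions had identical counts in any pair of libraries, so no library was a copy of another. All of the 100693 positions that fell in a RefSeq promoter were cytosines of a CG pair on one strand or the other. Of the deleted elements, the H19 DMR window had 0 reads in each DKO line, which allows up to 0.0149, 0.0146 and 0.0152 RPM of all reads over cytosines in replicates 1, 2 and 3. WT replicates 1 and 2 had 22 and 23 reads there, none methylated, and round spermatids had 347, all methylated. In the IG-DMR window the DKO lines had 0, 0 and 62 reads, the WT lines 196 and 0, and the spermatid library 1. The reads of the library labelled DKO replicate 3 go against its label if they lie inside the deleted part, whose limits none of the sources used here gives. This library was the highest line at the Impact DMR window and in the Peg10 surroundings measured in all 6 libraries. The means there are given with and without it. It was also the highest line at the Plagl1 DMR window and at the Inpp5f gene body positions measured in all 6 libraries. The means of these Inpp5f positions are given only with it. No expression was measured, and of 5 round spermatid, 5 ES cell and 5 feeder fibroblast marker genes only 1, 1 and 2 had a measured start window. Tnp1, a spermatid nuclear protein gene, averaged 12.1% over the lines, against 0% in spermatids, and Zfp42, an ES cell gene, was at 0% in all 6 libraries. The fibroblast genes Pdgfrb and Twist2 averaged 15.2% and 8.57% over the lines, against 0% in spermatids. These values do not identify a cell type, and the part of feeder DNA in the lines' values was not tested.

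All 10 DMR windows were unmethylated in all 6 libraries when unmethylated was set at below 10%. The level of a window is the percentage of methylated reads summed over its positions with at least 10 reads in every library. Such levels are common at gene starts, as 89.6% of 11537 start windows of all genes were also below 10% in all 6 libraries. Below 1% in every library were 6 of the 10 windows, against a background of 74.4%. The median over the genes of the lines' mean was 0.0494%, against 0.0365% for all start windows, and the medians in round spermatids were 0.0244% and 0.0280%. The highest window value was 7.52%, at Impact in DKO replicate 3. Since the libraries are pools of cells, a partial level does not tell whether all cells or a share of them carried the mark.

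**Figure D1:**
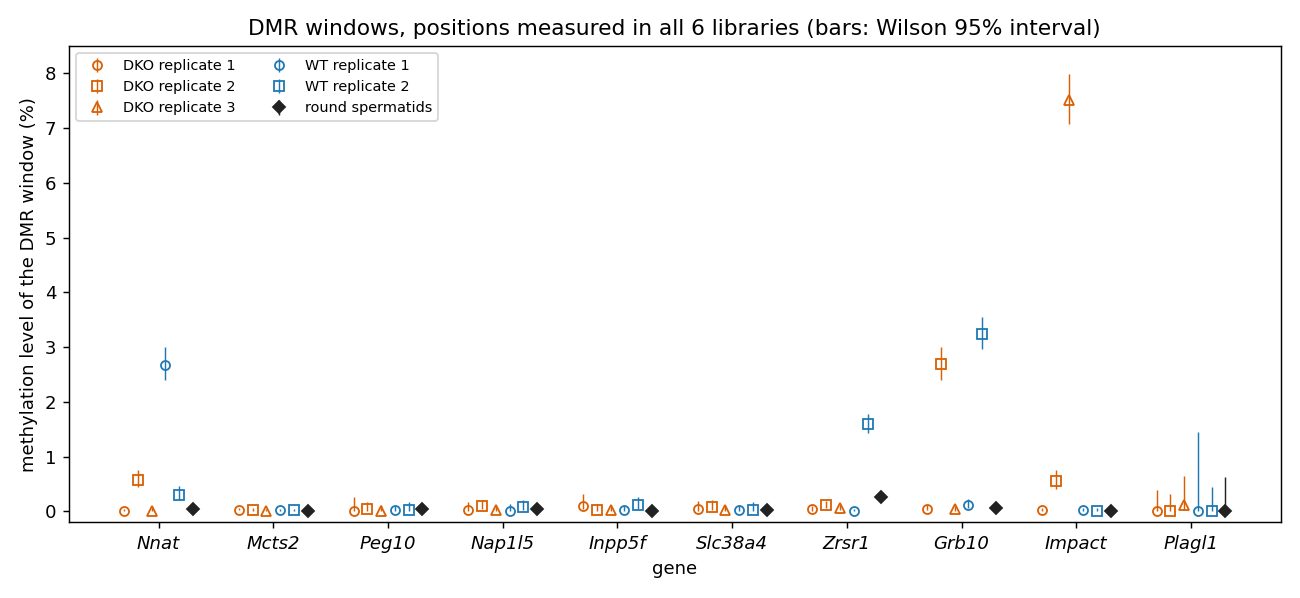
Methylation level (%, vertical axis) of each gene's DMR window (horizontal axis) in each library, from reads summed over positions measured in all 6 libraries, with Wilson 95% intervals for counting error. Most points lie near 0%, and single lines stand above the others at Nnat, Zrsr1, Grb10 and Impact, up to 7.52%.

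Mcts2, Nap1l5 and Zrsr1 are retrogenes that lie inside another gene. Mcts2, a retrocopy of a translation factor gene within H13, had its window at chr2:152686148-152688148 with 19 common positions. Its level was 0.0312%, 0.0272% and 0% in DKO replicates 1, 2 and 3, 0.0157% and 0.0195% in WT replicates 1 and 2, and 0.0103% in round spermatids. The groups overlapped, and every library lay below 0.1%. Nap1l5, a retrogene of the nucleosome assembly protein family within Herc3, had 14 common positions at chr6:58906126-58908126. Its level was 0.0285%, 0.0920% and 0.0276% in the DKO lines, 0% and 0.0703% in the WT lines and 0.0474% in round spermatids, which lay within the range of the lines. The 0% of WT replicate 1 allows up to 0.104%.

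Zrsr1, a retrogene related to a splicing factor and placed within Commd1, had 25 common positions at chr11:22971005-22973005. The DKO lines had 0.0346%, 0.113% and 0.0590%, the WT lines had 0.00779% and 1.59%, and round spermatids had 0.269%. WT replicate 2 stood apart from the other lines. The lines averaged 0.361% ± 0.688 (SD, n = 5), and 0.0535% without WT replicate 2. The excess came from 5 neighbouring positions between 22972083 and 22972121, where WT replicate 2 had between 4.70% and 4.78% of 1357 to 1361 reads. Round spermatids had 2.66% at the first of them and 0% at the other 4. A further position of that line, 22972128, had 33.9% of 189 reads, while the other measured lines were at most at 0.222% and round spermatids were at 0%.

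Nnat encodes neuronatin, a small membrane proteolipid of brain and endocrine cells, and lies within Blcap. Its window at chr2:157559078-157561078 had 16 common positions. The DKO lines had 0%, 0.576% and 0%, the WT lines had 2.68% and 0.301%, and round spermatids had 0.0472%. The zeros of DKO replicates 1 and 3 allow up to 0.0374% and 0.0681%. WT replicate 1 was the highest library, and the lines averaged 0.712% ± 1.13 (SD, n = 5), or 0.219% without it. Position 157560464 had 20.5% of 928 reads in WT replicate 1 and 0% in the other 5 libraries, while its neighbours 20 and 4 bases away had 0.108% and 0.323% in the same line.

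Peg10 derives from a retrotransposon and is needed for placental development in mice, and its start is shared with Sgce. The window at chr6:4746306-4748306 had 11 common positions, which also fill the start window of Sgce. DKO replicates 1, 2 and 3 had 0%, 0.0465% and 0%, the WT lines had 0.0169% and 0.0289%, and round spermatids had 0.0327%. The zeros of DKO replicates 1 and 3 allow up to 0.206% and 0.0900%. The Wilson 95% intervals of all 6 libraries overlapped.

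Slc38a4, an amino acid transporter gene of liver and placenta, had 3 common positions at chr15:97054956-97056956. It was at 0.0332%, 0.0729% and 0.0157% in the DKO lines, 0.0198% and 0.0303% in the WT lines and 0.0161% in round spermatids. Inpp5f encodes an inositol polyphosphate phosphatase, and its imprinted variant 2 starts inside the gene. The window placed there, chr7:128687000-128689000, had 11 common positions with 0.105%, 0.0227% and 0.0187% in the DKO lines, 0.0169% and 0.112% in the WT lines and 0.0108% in round spermatids. At both genes the DKO and WT lines overlapped and no library exceeded 0.112%.

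Plagl1 encodes a zinc finger transcription factor that slows cell growth. Its window at chr10:13089832-13091832 had 5 common positions and the thinnest depth of the 10, with 260 to 1187 reads. DKO replicate 3 had 1 methylated read (0.114%), and the other lines and round spermatids had none, which allows up to 1.15% in WT replicate 1 and 0.487% in round spermatids. On the positions of single libraries the same window held more CpGs, with 40 positions measured in any library. The highest value of a single CpG was 3.70% in round spermatids. Their level over the window was 0.118%, from 1 methylated read of 848.

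Grb10 encodes an adaptor that restrains growth factor signalling. In mice its main promoter is used from the maternal copy, and transcripts in brain from the paternal copy start downstream, near the DMR. The downstream window, chr11:12025000-12027000, had 13 common positions. DKO replicates had 0.0492%, 2.69% and 0.0343%, WT replicates had 0.108% and 3.24%, and round spermatids had 0.0512%. DKO replicate 2 and WT replicate 2 thus stood above the other 4 libraries, and the groups overlapped. Each excess lay at a single position, with 33.3% of 908 reads at 12026833 in DKO replicate 2 and 28.8% of 1486 reads at 12026775 in WT replicate 2. At either position the other 5 libraries were at or below 0.287%, and neighbouring CpGs 7 to 36 bases away were at most at 0.222% in the line concerned.

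In the same Grb10 window, 8 positions between 12025628 and 12025676 were read in round spermatids and otherwise in WT replicate 1 only. WT replicate 1 was at 0% or, at 1 position, 5.26%, while round spermatids had 63.6% of 11 reads at the first and 38.9% of 18 reads at each of the other 7. Equal values on neighbouring CpGs can come from the same reads. These were the only DMR values above 10% in round spermatids.

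Impact encodes an inhibitor of a stress kinase of translation and has its DMR downstream of the annotated gene start. The window chr18:12972000-12974000 had 15 common positions. Its level was 0.0165%, 0.554% and 7.52% in the DKO lines, 0.0206% and 0.00931% in the WT lines, and 0.00871% in round spermatids. The lines averaged 1.62% ± 3.30 (SD, n = 5), and 0.150% without the library labelled DKO replicate 3. In that library 4 positions, 12973381, 12973400, 12973412 and 12973420, each had 10.2% of 2283 or 2284 reads, while the neighbours 8 and 43 bases outside them had 0%. Position 12973412 also had 9.20% of 402 reads in DKO replicate 2. At these 4 positions DKO replicate 1 was at or below 0.0743%, and both WT lines and round spermatids were at 0%.

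Single CpGs in the DMR windows followed the same pattern. The windows held 258 positions with 10 reads in any library and 132 in all 6, where 792 values (position and library) had a median of 598 reads. Of these 792 values, 647 were exactly 0 and 769 were below 1% (97.1%, against 96.2% for the start windows of all genes). Values above 10% numbered 7, against a background of 2.68%, and all 7 were in lines, at Nnat, Grb10 and Impact as described above. With positions read in fewer libraries the number was 16, of which 8 were in lines and 8 in round spermatids. No CpG of any DMR window exceeded 90% in any library, and the 73 positions read in a single library were all below 10%.

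**Figure D2:**
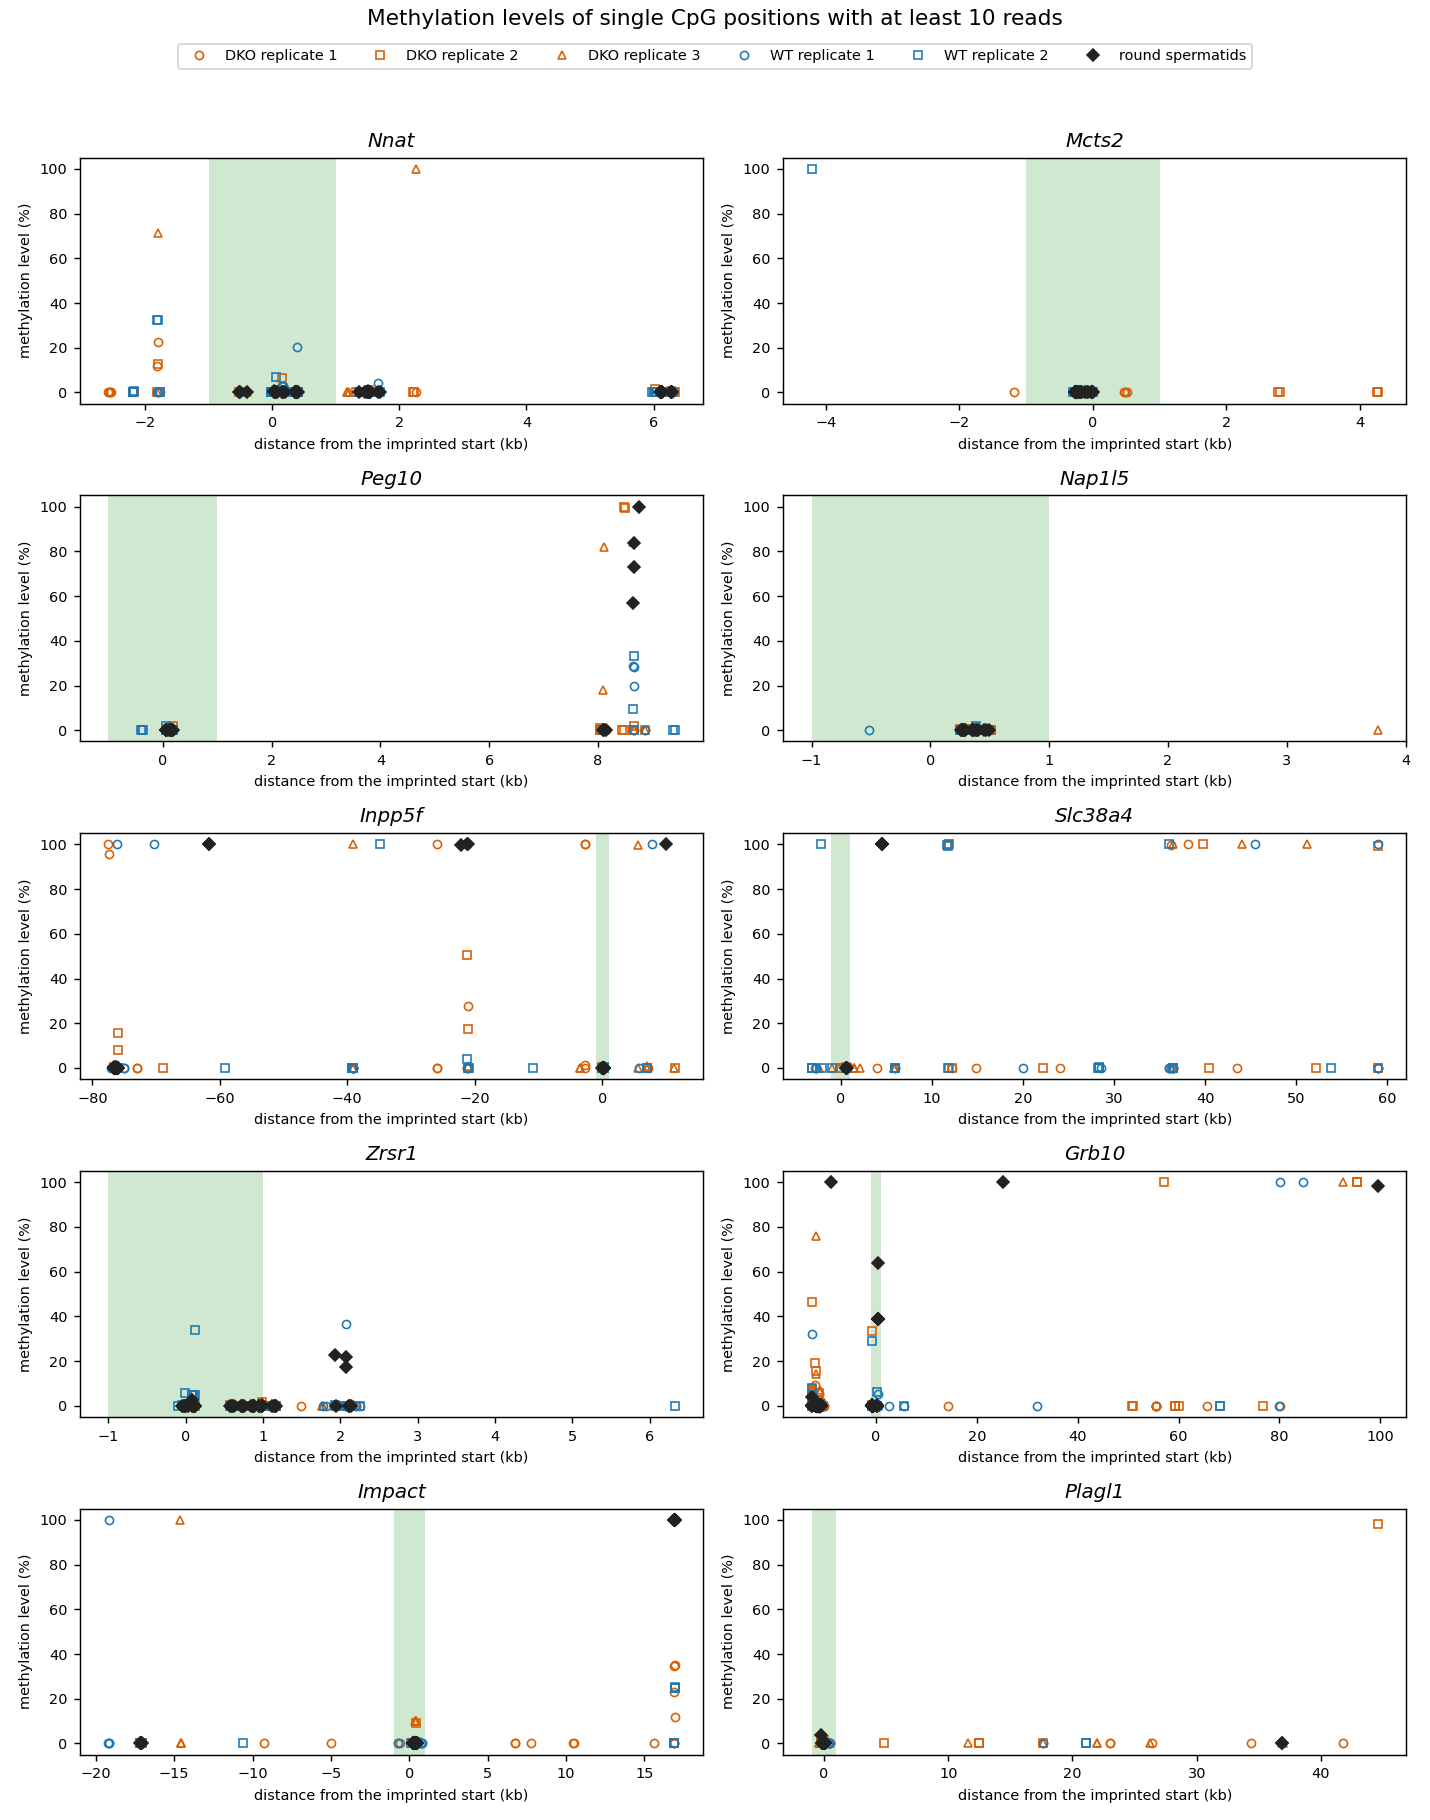
Level (%) of each CpG with at least 10 reads against its distance (kb) from the start of the imprinted transcript, in 1 panel per gene, with the DMR window shaded. Inside the shading nearly all points lie at 0%, and values at or near 100% in round spermatids (black diamonds) and in single lines lie outside it.

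Outside the DMR windows the measured CpGs divided into those near an annotated gene start and those away from one. The surroundings held 427 positions in any library, 102 of them in all 6. Within 1 kb of an annotated start lay 190 positions, mostly at the main starts of Grb10 and Inpp5f, where methylation was rare. There the DKO lines had 3 of 119, 2 of 149 and 1 of 127 positions above 90%, the WT lines had 1 of 122 and 3 of 112, and round spermatids had none of 110 above 10%. Away from starts lay 237 positions. The DKO lines had 5 of 95, 8 of 70 and 8 of 80 above 90% (5.26%, 11.4% and 10%), and the WT lines had 7 of 65 and 3 of 81 (10.8% and 3.70%). Round spermatids had 19 of 54 such positions above 90% (35.2%), 6 between 10% and 90% and 29 below 10%. Round spermatids thus had the highest share, and the DKO and WT lines overlapped.

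These shares come from partly different CpGs. Of the 19 positions above 90% in round spermatids, 12 were read in that library only, and among all surroundings positions 221 of 427 were read in a single library. In the lines, 34 of the 41 positions above 90% were likewise read in that line alone. Of the 19 spermatid positions, 5 lay in Impact and 4 in Slc38a4, each set in a short stretch whose CpGs can come from the same reads. The positions are therefore not independent. With 1 spermatid library the difference has no replicate check.

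**Figure D3:**
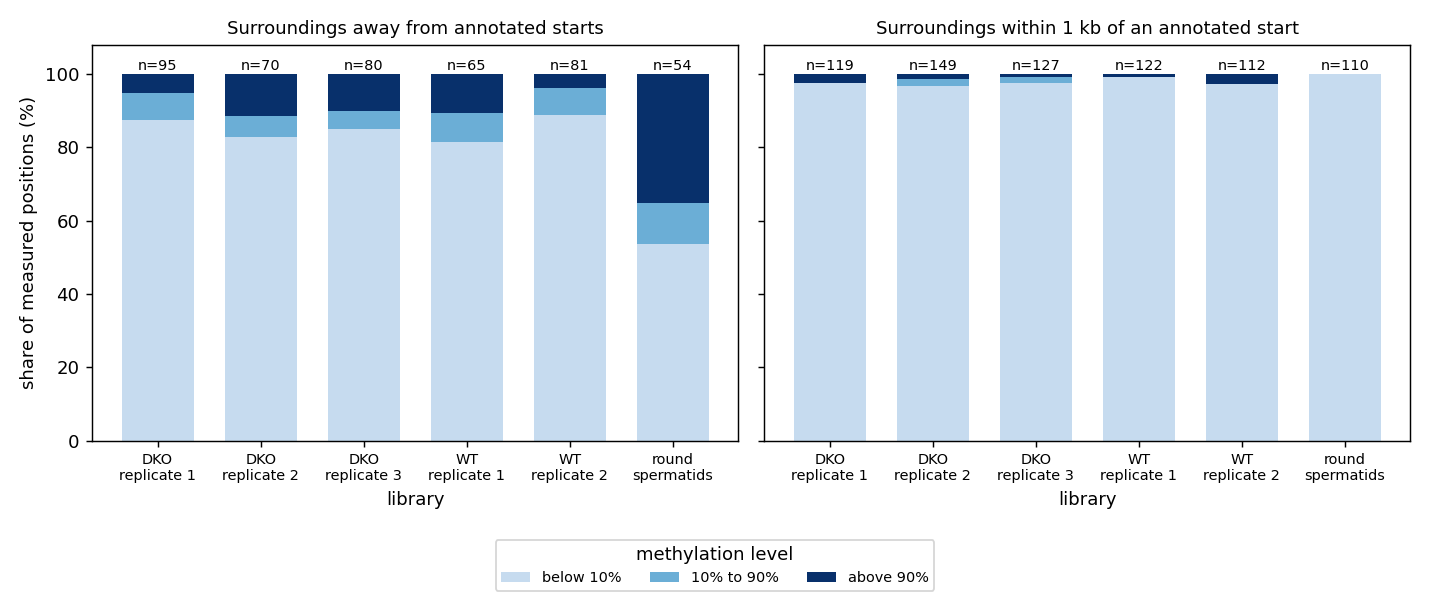
Share (%) of surroundings positions below 10%, between 10% and 90% and above 90% in each library, away from annotated starts (left) and within 1 kb of one (right), with the number of measured positions over each bar. Away from starts 3.70% to 11.4% of positions are above 90% in the lines, against 35.2% in round spermatids.

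In the lines, values above 90% away from starts were 9 of 58 in Inpp5f, 8 of 47 in Slc38a4 and 6 of 47 in Grb10. The methylated positions of round spermatids were spread over 5 of the 10 genes. Inpp5f had 6 of 6 positions away from starts above 90%, at 128626247, 128626250, 128665890, 128666813 and 128666934 in the gene body and at 128698069 in the flank. Slc38a4 had 4 of 4, between 97051368 and 97051434 in the gene body, all at 100% and 3 of them from 143 reads. Impact had 5 of 9, Grb10 had 3 of 7 (11926454, 12000907 and 12034848) and Peg10 had 1 of 7 (4756054). Zrsr1, Nnat and Plagl1 had 0 of 7, 0 of 12 and 0 of 2 above 90%, and Mcts2 and Nap1l5 had no spermatid position there. All Nnat and Plagl1 positions away from starts were below 10% in round spermatids, so methylated surroundings were not seen at each gene.

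Only 10 surroundings positions were above 50% in round spermatids and also measured in a line, and they lay in Peg10, Inpp5f and Impact. In Peg10, 3 neighbouring CpGs lay 8641 to 8659 bases downstream of the start, inside the gene body. Position 4755947 had 0.154%, 0% and 84.2% in the DKO lines, 28.8% and 9.62% in the WT lines and 57.1% of 2008 reads in round spermatids. Position 4755959, 12 bases on, had 0.154%, 0% and 0% in the DKO lines, 28.5% and 33.3% in the WT lines and 83.8% of 2009 reads in round spermatids. At the third, 4755965, the 4 measured lines were at 19.9% or less and round spermatids at 73.1%, while DKO replicate 3 was not read there. All 5 lines were below round spermatids at the second position, whereas DKO replicate 3 was above them at the first.

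In Inpp5f, the pair of CpGs at 128666813 and 128666934 lay in the gene body, upstream of the imprinted start. The first had 0%, 50.6% and 100% in the DKO lines, 0% and 4.18% in the WT lines and 100% of 271 reads in round spermatids. The second had 27.7%, 17.6% and 0.893% in the DKO lines, 0% and 0% in the WT lines and 100% in round spermatids, there from 16 reads. Lines therefore differed from each other by up to the whole scale at a single CpG.

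In Impact, 5 CpGs between 12989913 and 12989948 in the gene body were measured in 2 lines and in round spermatids. DKO replicate 1 had 23.2%, 34.8%, 35.1%, 100% and 11.7% at them, from 222 to 224 reads. WT replicate 2 had 0%, 0%, 25%, 25% and 25.4%, from 63 or 64 reads. Round spermatids were at 100% at all 5, from 69 reads each, and the other lines did not reach 10 reads there.

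**Figure D4:**
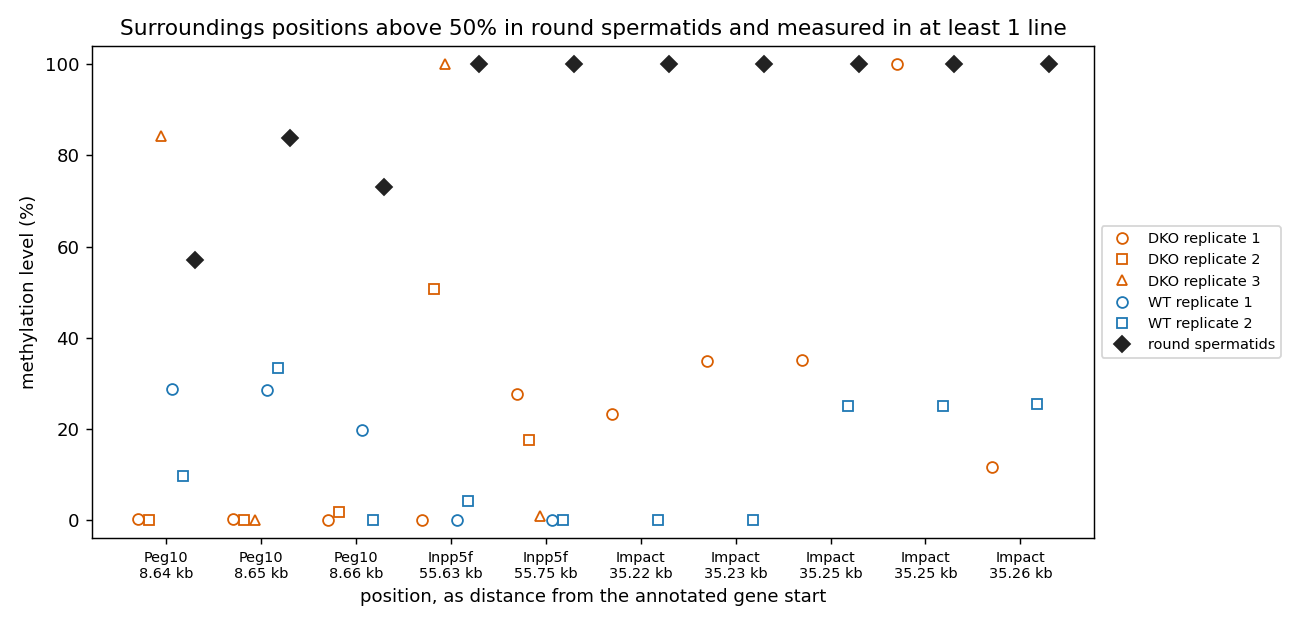
Level (%) at the 10 surroundings positions above 50% in round spermatids and measured in at least 1 line, labelled by gene and distance (kb) from the annotated gene start. The lines range from 0% to 100%, and most of them lie below round spermatids, which range from 57.1% to 100%.

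By a rule of size, a difference of at least 25 percentage points with all 5 lines on one side of round spermatids, 2 of the 234 positions measured in all 6 libraries were lower in the lines (4755959 of Peg10 and 128666934 of Inpp5f) and none was higher. Over all positions of the series, 21.2% were lower in the lines by this rule. The 2 shares are not alike in location. Of the 234 positions, 132 lay in DMR windows and 65 at the main starts of Grb10 and Inpp5f. No spermatid value exceeded 10% at these, so the rule for lower lines could not be met there. Over whole start windows, 3.79% of all genes were lower in the lines and 0.13% were higher, and none of the 10 DMR windows was either. For surroundings, 36.1% of the genes with at least 3 common positions were lower in the lines and 0.255% were higher. Among the 6 members that had any common surroundings, Peg10 was the only one with a difference of that size over all its common surroundings. With 2 such positions Peg10 lies outside that background, and no member with at least 3 had such a difference. Over its 2 positions the DKO lines had 0.154%, 0% and 48.2%, the WT lines 28.7% and 21.5%, and round spermatids 70.5%. This was a mean of 19.7% ± 20.4 (SD, n = 5) over the lines and of 12.6% without the library labelled DKO replicate 3. In Inpp5f the common surroundings are mostly main start, and the 2 positions outside it had 15.5%, 27.6% and 33.5% in the DKO lines, 0% and 3.31% in the WT lines and 100% in round spermatids. This was a difference of -84.0 points in mean, with all 5 lines lower when the reads of the 2 positions were summed. At 128666813 alone, DKO replicate 3 equalled round spermatids at 100%. The spermatid value at 128666934 rests on 16 reads. Slc38a4 had no common surroundings. On the positions of each library it had 25.5%, 26.9% and 26.7% in the DKO lines and 8.58% and 17.0% in the WT lines. Round spermatids had 100% over 4 positions, none of which was measured in a line. No Slc38a4 surroundings CpG was therefore compared between lines and round spermatids.

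Zrsr1 showed a smaller spermatid excess in its gene body. Over 7 common positions the DKO lines had 0%, 0.0563% and 0.124%, the WT lines 0.0363% and 0.0844%, and round spermatids 5.85%. Position 22973934 carried it, with at most 0.312% in any line and 22.5% of 942 reads in round spermatids. The opposite was seen in the upstream flank of Grb10, where position 12038772 had 6.73%, 46.4% and 0% in the DKO lines, 0% and 8.07% in the WT lines and 0% of 836 reads in round spermatids. In the Nnat flank, position 157558280 was read in the lines alone, with 22.5%, 12.8% and 71.3% in the DKO lines and 0.150% and 32.6% in the WT lines.

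Setting each DMR window against its surroundings within the same line gave no difference past the exact test, which 5 lines cannot pass at 0.05. At Peg10 the DMR was lower by a mean of 19.7 percentage points, in 4 of 5 lines, with 70.4 points in round spermatids (two-sided exact sign-flip permutation test over the 5 lines, p = 0.125). Without the library labelled DKO replicate 3 the mean at Peg10 was -12.5 points. At Inpp5f the DMR averaged 0.0551% and the surroundings 2.75%, the DMR being lower in 4 of 5 lines (exact sign-flip p = 0.125). Round spermatids had 0.0108% in the Inpp5f DMR and 8.42% in its surroundings, of which 9 of the 11 positions lay at the main start. Nnat, Zrsr1, Grb10 and Impact had means that were higher in the DMR, by 0.647, 0.301, 0.480 and 1.57 points, with exact p between 0.25 and 0.688. The mean was 0.157 points at Nnat without WT replicate 1 and 0.0823 points at Impact without the library labelled DKO replicate 3, and at each of these 4 genes the direction turned under at least 1 other way of computing it. Adjusted by Benjamini-Hochberg over the 6 tests, the exact permutation p lay between 0.375 and 0.688, and the smallest p that 5 lines allow is 0.0625. Mcts2, Nap1l5, Slc38a4 and Plagl1 had no surroundings position measured in all 6 libraries.

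A start window below 10% in all 6 libraries beside surroundings of 50% or more in round spermatids was found at 1 of the 6 measured members (Peg10), against 36.5% of 8592 genes. A start window below its surroundings in all 5 lines was found at none of the 6, against 43.6% of those genes. Both shares were below those of all genes, with no test of that difference. The comparison rests on few positions, as 65 of the 102 common surroundings positions lie at the main starts of Grb10 and Inpp5f.

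Those main starts carried little methylation. At the main start of Grb10, upstream of its DMR, 56 positions had 0.0383%, 0.514% and 0.616% in the DKO lines, 0.0142% and 0.0140% in the WT lines and 0.0272% in round spermatids. All 3 DKO lines lay above both WT lines there, by a mean of 0.375 points (two-sided exact permutation test over 10 splits, p = 0.2). At the main start of Inpp5f, 9 positions had 0.0531%, 4.51% and 0.154% in the DKO lines, 0% in both WT lines and 0.0319% in round spermatids. The mean was higher in DKO by 1.57 points on these positions, but it was lower in DKO on the positions of each library, with a difference of -0.843 points, where WT replicate 1 had 3.56% over 32 positions.

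The deletions of the DKO lines lie at other imprinted domains, and the members were compared between DKO and WT lines for a difference elsewhere. In the quasi-likelihood test of edgeR on methylated and unmethylated counts, 0 of 11395 start windows were called at an adjusted p under 0.05 (0% in either direction), with 312 at an unadjusted p under 0.05. With limma, 0 were called and 462 had such an unadjusted p. The 10 DMR windows had adjusted p between 0.979 and 0.999. The largest differences in mean were at Impact, with 2.65% in DKO and 0.0184% in WT lines, and at Nnat, with 0.192% in DKO and 1.49% in WT lines. These means are over positions measured in every line, and both genes had an adjusted edgeR p of 0.979. The difference at Impact was 2.63 points, and 0.263 points without the library labelled DKO replicate 3. At Nnat it was -1.30 points, with -0.109 points without WT replicate 1 and -2.49 points without WT replicate 2. No member had all 3 DKO lines above or all below both WT lines, against 13.2% and 4.39% of start windows.

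For the surroundings, 0 of 14330 genes were called by edgeR (341 at an unadjusted p under 0.05) and 0 by limma (476 such). The 5 members tested, Nnat, Inpp5f, Zrsr1, Grb10 and Impact, each had an adjusted edgeR p of 1. On positions measured in every line, Inpp5f alone had all 3 DKO lines above both WT lines, which 8.85% of genes had, and none had all 3 below, which 6.56% had. The Inpp5f surroundings were at 2.04%, 9.65% and 1.53% in the DKO lines and 0% and 0.543% in the WT lines. Its means were 4.41% in DKO and 0.272% in WT lines (exact permutation test, p = 0.3, and unadjusted edgeR p = 0.0807), and the difference of 4.14 points was 1.51 points without DKO replicate 2. On positions shared by each line and round spermatids the ordering was lost, with 1.5%, 4.6% and 0.886% in the DKO lines and 3.77% and 0.171% in the WT lines, a difference of 0.359 points. With each library on its own positions, which are partly different CpGs, the ordering held. The means were then 4.72% in DKO and 2.09% in WT lines (exact permutation test, p = 0.1). At the 2 Inpp5f gene body positions given above, the means were 25.5% in DKO and 1.66% in WT lines (exact permutation p = 0.2). On own positions the Inpp5f gene body had 21.5% in DKO and 3.95% in WT lines (exact permutation p = 0.1). On own positions the Slc38a4 surroundings had 26.4% in DKO and 12.8% in WT lines (exact permutation p = 0.1). Of the 61 Slc38a4 surroundings positions, 55 were read in a single library and 0 in all 6. The DKO and WT means of Slc38a4 thus come from mostly different CpGs. Other members with own surroundings positions in every line had exact permutation p between 0.3 and 0.9, with lower DKO means at Peg10 and Zrsr1. The smallest p that 3 against 2 lines can give is 0.1.

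Other imprinted genes were measured at their annotated gene start. That start need not be where their DMR lies. Their DMRs were not located here, so a low value was not taken as a reading of the DMR. Among 10 further genes with a maternal germline DMR, 4 had a measured start window (Kcnq1ot1, Airn, Igf2r and Trappc9), all below 10% in all 6 libraries. Their median was 0.0523% over the lines, against 0.0259% in spermatids, and the highest value was 0.832%, at Kcnq1ot1 in round spermatids. Of 5 genes of paternally methylated domains 3 were measured at their start, Dlk1, Rasgrf1 and Zdbf2, all below 10%, with 1.5% in DKO replicate 2 at Rasgrf1 as the highest. The host or neighbour genes of the members had 6 of 10 start windows measured, none above 0.143% in any library. Among them, Sgce, Hymai and Blcap repeat the common positions of the Peg10 DMR window, the Plagl1 DMR window and the Nnat flank. Of 7 genes whose products keep imprints, 4 were measured (Trim28, Uhrf1, Zfp445 and Setdb1), with 0.456% in WT replicate 1 at Zfp445 as the highest value. No gene of these 4 lists was called between DKO and WT lines or passed the rule of size.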

How the data were processed

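Per the labels' protocols, genomic DNA was cut with MspI, joined to methylated adapters, selected by size, treated with bisulfite and amplified by PCR. Per the submitters' processing notes, Bismark 0.12.2 and the build mm10 were used. None of the sources used here gives the trimming, the removal of duplicates or the strand handling. The authors deposited, per position, the read counts of methylated and unmethylated cytosine and the methylated fraction. That deposited fraction equalled the one from the counts at every position, within 1e-09.

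Levels were computed here as the percentage of methylated reads summed over positions with at least 10 reads in all 6 libraries. PCR reads carry no molecular identifiers and a read counts at each CpG it covers, so intervals (Wilson, 95%) and limits for a count of 0 (3 counts of the total) cover counting error only and are too narrow. Gene starts, strands and promoter sequences came from RefSeq (GRCm38.p6, the assembly of mm10), and exons, introns and UTRs were not assigned. The imprinted start was the annotated start for Nnat, Mcts2, Peg10, Nap1l5, Slc38a4, Zrsr1 and Plagl1. For Inpp5f, Grb10 and Impact it was a literature position to the nearest kb. At Impact this replaced the annotated gene start after its positions were seen, as that window had 0 positions in all 6 libraries. Surroundings were also divided by nearness to annotated starts after the data were seen. For all other genes on the 19 autosomes and X, the start window lay within 1 kb of the annotated gene start. Where no strand was given, the gene end with more measured positions was taken. Start windows needed at least 3 positions.

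DKO and WT lines were compared over all windows with edgeR 4.0.16 in R 4.3.3 (quasi-likelihood test, a term per library, a group by methylation term, common dispersion, two-sided, Benjamini-Hochberg), which was tested on simulated data. The simulation gave every window the median spread between lines. It therefore does not show which differences could be found in windows whose lines vary more. Single values were compared by exact tests. Positions named singly were those with the most extreme difference between lines and round spermatids in a gene, any DMR position above 10%, and, chosen after their values were seen, surroundings positions above 50% in round spermatids or far apart between lines. The 10 genes, the gene lists and the tests were chosen with earlier results of these data known. Alternatives covered the minimum of reads (5, 20 and 50), the positions used, the window (500 bp and 2 kb), the flank, limma 3.58.1, trended dispersion, a block by line name and leaving out each line.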

Additional observations from a re-analysis of the deposited data

Results flagged for a closer look

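In 5 of 16 sets of 5 line values, 1 line lay far from the other 4. Chance gives about 1 in 20 for normally distributed values, a rate that need not hold for levels bounded at 0%. At the Nnat DMR window, WT replicate 1 had 2.68%, and the other lines lay between 0% and 0.576%. At the Zrsr1 DMR window, WT replicate 2 had 1.59%, against 0.00779% to 0.113% in the others. At the Impact DMR window, the library labelled DKO replicate 3 had 7.52%, against 0.00931% to 0.554%. At the Plagl1 DMR window, the same library had 0.114%, which is 1 methylated read, and the others were at 0%, so that any single read would have set a line apart there. In the Inpp5f surroundings, DKO replicate 2 had 9.65%, against 0% to 2.04%. The lines that stood apart were thus 2 WT lines and 2 DKO lines, each at 1 or 2 genes, and the cause was not tested.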

How the results depend on the processing

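The DMR windows were below 10% in every library under each minimum of reads, choice of positions, way of averaging and 2 kb window tried, and 9 of the 10 gave a value, all below 10%, with a window of 500 bp. Of 662 recomputed values, 607 were rated the same, 28 moved, 23 changed sign, 3 were stronger and 1 was weaker. A mean of lines was rated moved when it shifted by the SD of the 5 lines, which leaving out 1 line cannot reach. A spermatid value was rated moved when it left its Wilson interval. Differences were rated by sign, DKO minus WT also by the adjusted p threshold, and counts by their size. With each library on its own positions, DMR minus surroundings turned to -1.55 points at Nnat, -0.0948 at Grb10 and -2.53 at Impact. It was -0.323 at Grb10 with a DMR within 500 bp and -1.56 at Impact on positions shared by each line and round spermatids, a choice made after seeing the data. The DKO minus WT difference of the Zrsr1 surroundings was -0.141 with a minimum of 5 reads. Leaving out each line gave DMR minus surroundings of -0.000494 to 0.392 at Zrsr1 and -0.122 to 0.780 at Grb10, both turning without WT replicate 2. It gave DKO minus WT differences of -0.00402 to 0.0116 at the Mcts2 DMR window, -0.0229 to 0.000330 at Peg10, -0.00759 to 0.0591 at Nap1l5, -0.0520 to 0.0206 at Inpp5f, -0.000628 to 0.0280 at Slc38a4, -1.52 to 0.0610 at Zrsr1 and -2.32 to 0.816 at Grb10. In the surroundings these were -5.38 to 2.35 at Nnat and -0.0314 to 0.0298 at Zrsr1. The causes of these turns were not tested.

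A replicate block by the line names that titles share (OG3 and AGH-2) called 13 start windows, 10 higher and 3 lower in DKO, none of them a member, and 0 surroundings, while Impact had an adjusted edgeR p of 0.0778. The names are not stated to mark a shared source. The difference between the OG3 and AGH-2 lines in WT was correlated with the same difference in DKO. The correlation was 0.114 across start windows and 0.0998 across surroundings, and DKO replicate 1 did not enter it. Start windows higher in the lines than in round spermatids numbered 1 at 50 percentage points, and 14 to 26 when each line was left out, with 25 without DKO replicate 3 and 26 without WT replicate 2, against 15 with all lines. Depth limited Plagl1 most, with 260 reads in WT replicate 1, and 4 genes had no common surroundings.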
